A study of Mus musculus with 2 samples.

Results

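Mir210 and Mir126a are 2 of the 2202 microRNA genes counted in C2C12 cells turned into myocytes. They were chosen by symbol from the sense-strand counts, as a microRNA tied to oxygen supply and a microRNA tied to blood vessels, and because earlier values of these same counts showed opposite stability between the replicates. The level of each gene in each replicate and the ratio between the replicates are therefore given here as a description, with no test. C2C12 is a myoblast line that comes from injured thigh muscle of C3H mice and forms muscle cells when it leaves the cell cycle. The cells had been differentiated in culture for 72 h, and the series holds 1 group of 2 libraries, numbered as biological replicates 1 and 2. No other treatment, genotype or oxygen level is given in the sources used here. The labels do not say whether the cultures were differentiated apart, so a spread between the libraries can be technical in part.

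MicroRNAs are cut from hairpin precursors and guide Argonaute proteins to messenger RNAs, mainly through the seed, the bases near the 5′ end of the mature strand. miR-210 is known for its induction by hypoxia-inducible factors when oxygen is low. It represses mitochondrial genes, the iron-sulfur cluster scaffold gene Iscu among them. miR-126 is made from an intron of Egfl7, which encodes a protein secreted by endothelial cells. It is known for its high level in endothelium, where it represses Spred1 and Pik3r2, brakes on signalling by vascular growth factors.

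The mature strands annotated by RefSeq (build GRCm38.p6) are shown as strands from which the reads can come. The counts do not tell the strands of a hairpin apart. A count is of the whole hairpin gene, so that of Mir126a can also hold reads of miR-126a-5p, which is not shown. Capitals mark the seed, bases 2 to 8, and each sequence is written 5′ to 3′. Mir126b is an annotated gene on the strand opposite Mir126a.
miR-210-3p: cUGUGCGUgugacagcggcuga
miR-210-5p: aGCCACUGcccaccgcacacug
miR-126a-3p: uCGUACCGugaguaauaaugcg
miR-126b-3p: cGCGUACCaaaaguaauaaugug
miR-126b-5p: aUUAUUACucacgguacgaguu
None of these 5 seeds occurred in any other of the 1738 mature mouse sequences in the RefSeq table. The seed of miR-126a-5p was not searched. miR-210-3p has a GC content of 63.6% and miR-210-5p of 68.2%, and miR-126a-3p, which is as long as each of them (22 bases), has 45.5%.

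The hairpins from which these strands are cut are unlike each other in length and base composition.
Mir210 hairpin: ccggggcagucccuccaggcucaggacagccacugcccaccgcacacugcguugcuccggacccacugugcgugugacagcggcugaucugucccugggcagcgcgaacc
Mir126a hairpin: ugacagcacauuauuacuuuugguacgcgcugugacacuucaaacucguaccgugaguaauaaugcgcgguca
The Mir210 hairpin has 110 bases and a GC content of 69.1%, and 12 of the 314 genes detected in these libraries have a higher one. The Mir126a hairpin has 73 bases and a GC content of 45.2%, below the median of 51.5% over the detected genes. Folded with RNAfold, the hairpins were alike in predicted stability per base, with −0.44 kcal/mol for Mir210 and −0.43 kcal/mol for Mir126a, against a median of −0.43 kcal/mol. The longest run of bases that either shares with any other annotated microRNA hairpin is 12 for Mir210 and 11 for Mir126a. Neither is among the 80 detected genes that share at least 20 bases with another hairpin. Reads of such genes can fit more than 1 place, and multi-mapped reads are not in the gene counts, so those counts can be too low.

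**Figure D1:**
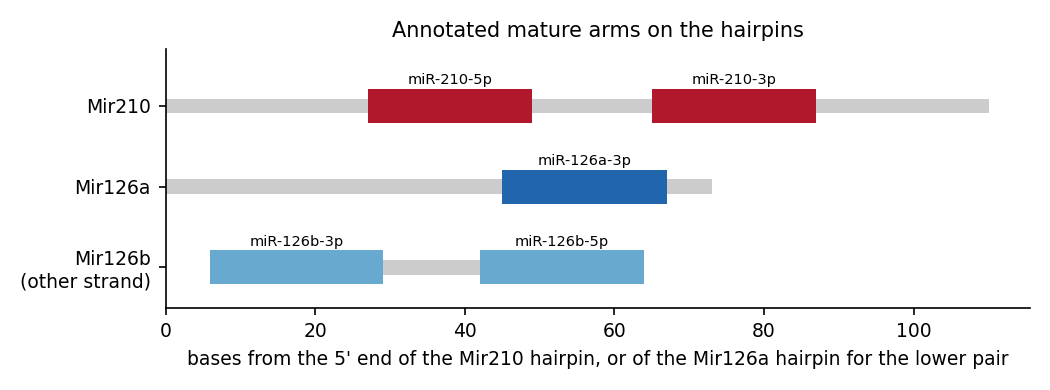
Mature strands in the RefSeq table (coloured blocks) on the annotated hairpins (grey bars), in bases from the 5′ end of the Mir210 hairpin or, for Mir126a and Mir126b, of the Mir126a hairpin. Mir126b lies on the other strand, and all of its 58 bases lie within the 73 bases of Mir126a.

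Mir210 (ENSMUSG00000065551.1) lies on the minus strand at chr7:141221384-141221493 (mm10). The GENCODE M21 annotation puts no exon or intron of another gene there. The nearest genes are Rassf7, 2725 bases away, and Phrf1, 7290 bases away, both on the plus strand. Mir126a (ENSMUSG00000065540.1) lies on the plus strand at chr2:26591357-26591429, inside Egfl7 on the same strand. Of the 19 annotated Egfl7 transcripts 9 span it, 8 of them with an intron and 1 with an exon at this place. Gm20532, whose transcript starts inside Egfl7 and runs beyond it, also has an intron here. miR-210-3p and miR-210-5p matched exactly only the Mir210 transcript among 141767 M21 transcripts. miR-126a-3p matched that of Mir126a and 1 of Egfl7.

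Mir210 was among the more abundant microRNAs of the myocytes and differed little between the libraries. It had 17831 counts in replicate 1 and 24153 in replicate 2. In CPM, counts scaled to 1000000 counts assigned to microRNA genes per library, this is 2352 in replicate 1 (95% Wilson interval for counting error 2318 to 2387) and 2448 in replicate 2 (2418 to 2479). The mean was 2400 ± 68.1 CPM (SD, n = 2), rank 37 of 2202 genes, and the coefficient of variation was 2.84%. Mir210 took 0.235% of the assigned counts in replicate 1 and 0.245% in replicate 2. Its rank within a library was 40 in replicate 1 and 32 in replicate 2, so it held a higher place in replicate 2 although its level was nearly the same.

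Mir126a was rarer and far apart in the libraries. It had 1646 counts in replicate 1 and 423 in replicate 2, although replicate 2 was the deeper library. This is 217 CPM in replicate 1 (206.9 to 228) and 42.9 CPM in replicate 2 (39.0 to 47.2), so the counting intervals lie well apart. The mean was 130.0 ± 123 CPM (SD, n = 2) and the coefficient of variation 94.8%. The mean put Mir126a at rank 126, while its rank was 117 in replicate 1 and 158 in replicate 2. With an SD nearly as large as the mean, the level of Mir126a in these myocytes is poorly known, and its 2 values do not bound it.

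**Figure D2:**
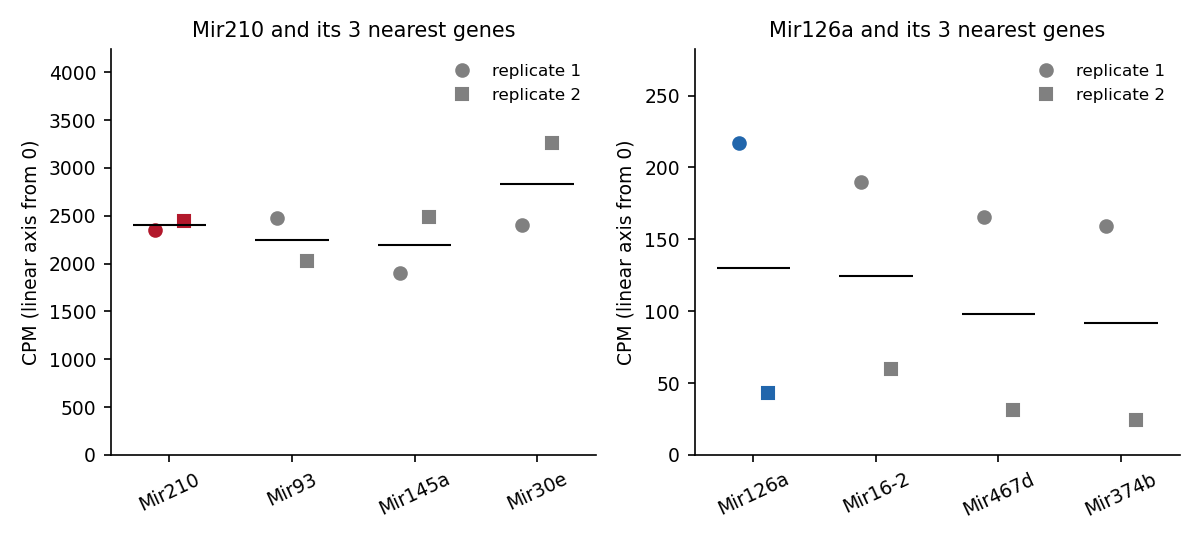
CPM of Mir210 (left, red) and Mir126a (right, blue) with the 3 detected genes nearest to each in the plane of both libraries (grey), as circles for replicate 1, squares for replicate 2 and lines for the mean. The Mir210 points lie at 2352 and 2448 CPM, and those of Mir126a at 217 and 42.9 CPM.

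The stability of both genes is set out as the ratio of replicate 1 over replicate 2, the values on which they were selected. The log2 ratio was −0.058 for Mir210 (exact 95% interval for counting error −0.086 to −0.030), a level 1.04 times as high in replicate 2. It was 2.34 for Mir126a (2.19 to 2.50), a level 5.06 times as high in replicate 1. Of the 314 genes with at least 10 counts in each library, 16 had a smaller absolute log2 ratio than Mir210. For Mir126a, 11 had a larger one, and all 11 were higher in replicate 1. A ratio past 2-fold was found for 1 of the 2 genes, Mir126a, and for 22.0% of all detected genes; a ratio past 2-fold toward replicate 1 was found for 15.9%, and toward replicate 2 for 6.05%. Since the genes were chosen for this contrast, nothing is read from that count.

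The placement of Mir210 near 0 depends on how the libraries are scaled. The median detected gene had a log2 ratio of 0.090. Scaling to counts without Mir206, the most abundant gene (34.1% of replicate 1 and 41.7% of replicate 2), moved that median to −0.087. Relative to the median gene, which does not depend on the scaling, the log2 ratio was −0.15 for Mir210 and 2.25 for Mir126a. On this measure 41 genes lay closer to the median gene than Mir210, and 302 lay closer than Mir126a. The number of genes past 2-fold was 50 toward replicate 1 and 19 toward replicate 2 with library totals, and 36 and 29 without Mir206.

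The spread between replicates differed with level. Mir210 belongs to the 65 genes that averaged 1000 CPM or more, whose median absolute log2 ratio was 0.46, with 16.9% of them past 2-fold. Mir126a belongs to the 68 genes that averaged 100 to 1000 CPM, for which it was 0.64, with 25% past 2-fold. It was 0.67 for the 79 genes from 10 to 100 CPM, with 34.2% past 2-fold. For the 102 genes under 10 CPM it was 0.39, with 13.7% past 2-fold. Detection needs at least 10 counts in each library, which keeps large ratios out of this lowest class. Its spread therefore cannot be compared with that of the other classes. A ratio past 4-fold, as for Mir126a, was found for 18 genes toward replicate 1 and for 1 gene toward replicate 2.

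**Figure D3:**
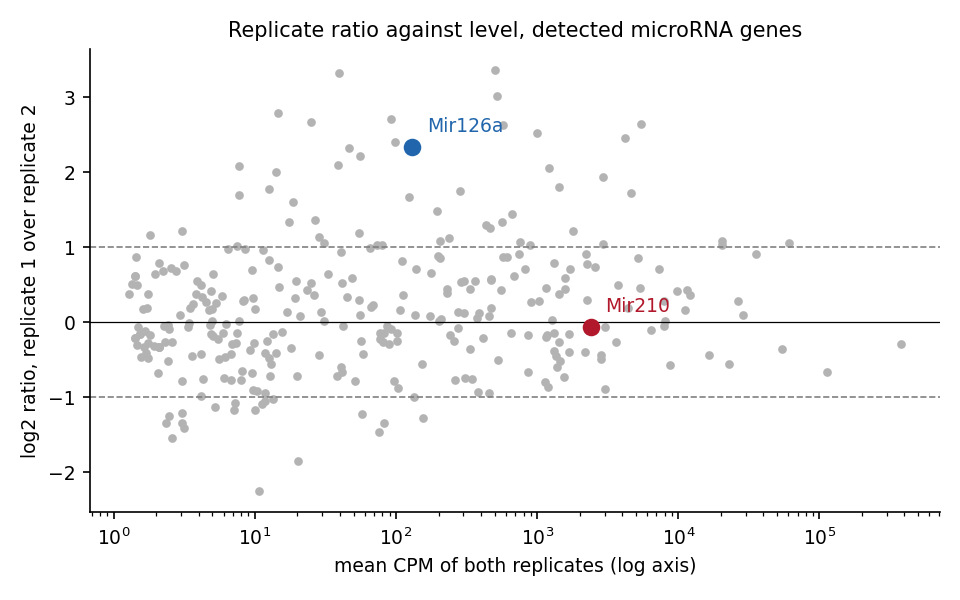
Log2 ratio of replicate 1 over replicate 2 (y axis) against mean CPM (x axis, log scale) for the 314 detected genes, with dashed lines at 2-fold. Mir210 lies at −0.058 and Mir126a at 2.34, and the points beyond 4-fold are nearly all on the side of replicate 1.

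Base composition moved with the same ratio. Across the 314 detected genes the GC content of the hairpin and the log2 ratio had a Pearson r of −0.27 and a Spearman rho of −0.28, as a description over genes that share the 2 libraries. Over the 133 genes that averaged 100 CPM or more, r was −0.34. Among the 32 genes above 65% GC, where Mir210 belongs, the median log2 ratio was −0.075, and 1 gene was past 2-fold toward replicate 1 and 5 toward replicate 2. In the 61 genes above 45% and up to 50% GC, where Mir126a belongs, the median was 0.12, and 10 genes were past 2-fold toward replicate 1 and 4 toward replicate 2. The 33 genes of at most 40% GC had a median of 0.71. Mir210 lay near the median of its GC class, and Mir126a lay far above that of its own, in which 4 genes had a higher ratio. The part of base composition in either ratio was not tested.

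**Figure D4:**
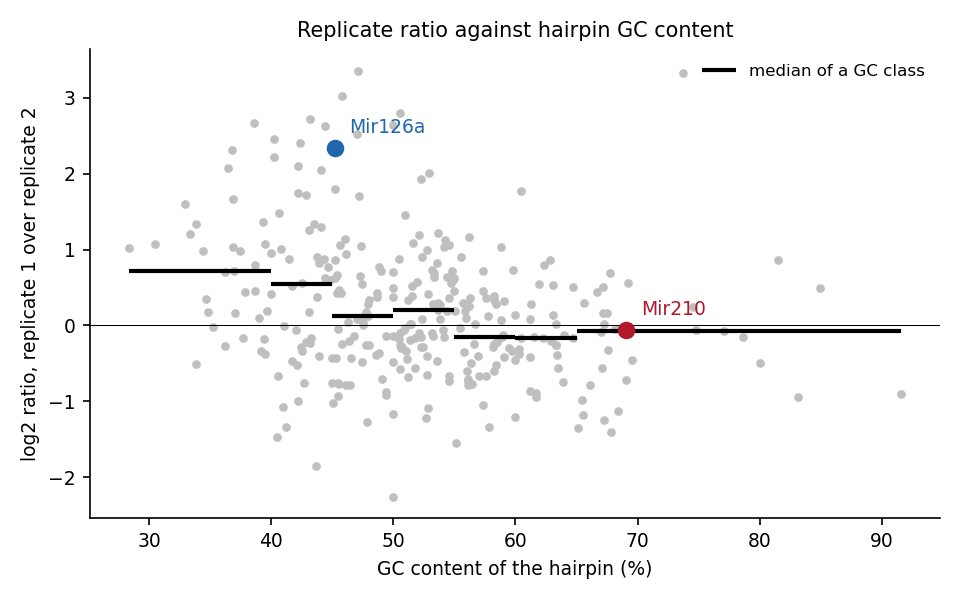
Log2 ratio of replicate 1 over replicate 2 against the GC content of the hairpin in percent for the 314 detected genes, with black lines for the median of each GC class. The medians are 0.71 at up to 40% GC and −0.075 above 65%, and Mir126a stands at 2.34 in a class with a median of 0.12.

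Set against each other, the genes kept their order but not their distance. The count of Mir210 was 10.8 times that of Mir126a in replicate 1 (exact 95% interval for counting error 10.3 to 11.4) and 57.1 times in replicate 2 (51.9 to 63.0). These ratios lie within a library and do not change with its scaling. The mature strands shown for Mir210 and Mir126a have the same length. Capture of small RNAs depends on sequence, so the ratios describe reads, not molecules per cell.

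In the order of levels, Mir210 stood between Mir27a, with a mean of 2580 ± 906 CPM, and Mir93, with 2251 ± 324 CPM (SD, n = 2 each). The range spanned by its replicates overlapped that of 14 other detected genes, between ranks 22 and 42. A gene far apart between the replicates overlaps more easily. Overlap therefore does not show a like level, only that the order of Mir210 among these genes is not settled. Mir126a stood between Mir142, with 133 ± 62.6 CPM, and Mir16-2, with 125 ± 92.0 CPM. Its range overlapped that of 65 genes, between ranks 78 and 179. Mir27a and Mir16-2 share at least 20 bases with another hairpin, so their counts are uncertain.

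The genes most like each of them were taken as the 3 with the smallest distance in log2(CPM + 1) over the 2 libraries. For Mir210 they were Mir93 (distance 0.29), Mir145a (0.31) and Mir30e (0.42). Mir93 had 2480 CPM in replicate 1 and 2022 in replicate 2. Mir145a, a smooth muscle and mesenchymal microRNA, had 1897 and 2489 CPM, and Mir30e had 2408 and 3262 CPM. All of them stood within 2-fold between the replicates. For Mir126a they were Mir16-2 (0.50), Mir467d (0.60) and Mir374b (0.92), each higher in replicate 1. Mir16-2 had 190 and 59.5 CPM, Mir467d had 165 and 31.1 CPM, and Mir374b had 159 and 24.2 CPM. Each of these 3 shares at least 20 bases with another hairpin, and Mir126a does not. Likeness over 2 libraries rests on 2 values per gene. Genes picked for nearness in both libraries must have a ratio like that of the member. Their stability or direction between the replicates is therefore no separate result.

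The opposite strand gave a further view of each locus. At Mir210 no read mapped to the other strand in either library, which allows a share of up to 0.0168% in replicate 1 and 0.0124% in replicate 2 (3 counts). At Mir126a there were 14 opposite-strand counts in replicate 1, or 0.843% of the reads of both strands (95% Wilson interval 0.503% to 1.41%), and 16 in replicate 2, or 3.64% (2.26% to 5.84%). These are the sense counts of Mir126b, with 1.85 CPM in replicate 1 and 1.62 CPM in replicate 2. Mir126b thus differed little between libraries in which Mir126a differed 5.06-fold, though on few counts. Of the 314 detected genes, 271 had no opposite-strand count in either library. At least 10 in each library were found for 6 genes, and all 6 have an annotated microRNA gene on the other strand.

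The sequences of the locus bear on how such reads are told apart. The Mir126a hairpin resembles its own reverse complement, as hairpins do. miR-126b-5p can be laid on the Mir126a sense hairpin with 5 mismatches in its 22 bases, and miR-126b-3p with 5 in its 23 bases. The same overlap has a plain effect in the deposited column that ignores strand. There Mir126a and Mir126b had 0 counts in both libraries, because every read fits both genes and is set aside as ambiguous, whereas Mir210 kept its 17831 and 24153 counts.

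The cells were checked against markers. Mir206, a microRNA of skeletal muscle, was the most abundant gene, and the 8 muscle markers summed to 35.5% of replicate 1 and 42.8% of replicate 2. Mir133b had 12089 ± 2151 CPM, Mir499 471 ± 131 and Mir208b 378 ± 166, whereas Mir1a-1, Mir1a-2, Mir133a-1 and Mir133a-2 had at most 3.02 CPM on average. The last 4 and Mir133b share bases with other hairpins. Multi-mapped reads are not in the gene counts, so the counts of these genes can be too low. The low values of the last 4 therefore do not show that their microRNAs were scarce in the myocytes. For Mir126a and Mir126b, taken as the endothelial pair, the levels added up to 219 CPM (replicate 1) and 44.5 CPM (replicate 2). Mir126a alone gave 217 CPM of the first sum and 42.9 CPM of the second. The pair therefore repeats the Mir126a values and is no separate check for endothelial cells, whose presence was not tested. In bulk RNA, fewer cells of a type and less RNA per cell cannot be told apart.

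Blood cells lie beside endothelium in tissue, so their markers were read too. The summed level of the 5 markers was 105 CPM for replicate 1 and 183 CPM for replicate 2, the reverse order of Mir126a. Mir142, a microRNA of blood cells, made up most of this, with 89.0 CPM in replicate 1 and 178 in replicate 2. The red cell microRNAs Mir451a (11.9 and 3.65 CPM) and Mir144 (3.43 and 0.710 CPM) were higher in replicate 1, on 90 and 36 counts and on 26 and 7 counts. Mir223, which defines myeloid cells, was near 0 with 2 counts and 1 count, and the lymphocyte microRNA Mir150 had 1 and 13 counts. Of these 5, Mir142 and Mir451a were detected. The part of other cells in the Mir126a ratio was not tested.

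Mir210 was set beside 23 other microRNAs that have been tied to hypoxia or to hypoxia-inducible factors. Of the 24 genes 22 were detected and 9 averaged 1000 CPM or more, with Mir210 at place 8. The most abundant were Mir21a with 60909 ± 30275 CPM, Mir23a with 26596 ± 3628, Mir322 with 20297 ± 10297 and Mir23b with 11582 ± 2402 (SD, n = 2 each). Mir322 is known in rodents to stabilise hypoxia-inducible factors. The list held 17.4% of replicate 1 and 10.6% of replicate 2, and Mir210 made up 1.35% and 2.32% of that. Of the detected members 15 were higher in replicate 1 and 7, Mir210 among them, higher in replicate 2, against 169 and 145 of all detected genes. The median log2 ratio was 0.32, against 0.090 over all detected genes. A ratio past 2-fold toward replicate 1 was found for 6 of the 22 detected members, against 50 of the 314 detected genes (15.9%). Toward replicate 2 it was found for 2 of the 22, against 19 of the 314 (6.05%). These counts depend on the scaling. Without Mir206 in the denominator, only Mir107 and Mir155 of the 6 stay past 2-fold toward replicate 1. Over all 314 genes that scaling gave 36 toward replicate 1 and 29 toward replicate 2. No trait of the list is therefore read from these shares.

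Few of these hypoxia-associated counts are as certain as those of Mir210. Of the 22 detected members 16 share at least 20 bases with another hairpin. The 6 that do not are Mir21a, Mir322, Mir210, Mir181c, Mir26b and Mir155. Of these, Mir21a stood at 82317 CPM in replicate 1 and at 39501 CPM in replicate 2, Mir322 had 27578 and 13017, Mir26b had 1198 and 584, and Mir155 had 651 and 271. With library totals, these 4 of the 6 were each past 2-fold toward replicate 1. Of all 234 detected genes without such shared bases, 32 were. Mir21a, Mir322 and Mir26b were only just past it, with log2 ratios of 1.06, 1.08 and 1.04. Without Mir206 in the denominator, only Mir155 of the 4 stays past 2-fold. Mir210 was chosen for its small ratio, so its contrast with them is no separate result. Mir181c (1192 and 1710 CPM) was 1.43 times as high in replicate 2. Mir107, the member farthest apart, had 911 and 88.8 CPM, but it shares bases with the Mir103 genes. Mir20b, known in human cells to target the messenger RNA of a hypoxia-inducible factor, had no count. A count of 0 allows a level of 0.396 CPM for replicate 1 and of 0.304 CPM for replicate 2 (3 counts).

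Mir126a was set beside 19 other microRNAs tied to blood vessels, most of which many cell types make. Of the 20 genes 18 were detected and 6 averaged 1000 CPM or more, with Mir126a at place 11. The list was led by Mir130a with 16401 ± 3465 CPM, Mir100 with 8104 ± 43.7, Mir17 with 5138 ± 2102 and Mir221 with 2905 ± 1429 (SD, n = 2 each). Mir126a made up 0.558% of the list's counts in replicate 1 and 0.116% in replicate 2. Of the detected members 13 were higher in replicate 1 and 5 in replicate 2, against 169 and 145 of all detected genes, and their median log2 ratio was 0.28, against 0.090. Past 2-fold toward replicate 1 were 3 of the 18, a share near the 15.9% of all detected genes. They were Mir20a with 923 and 114 CPM, Mir126a, and Mir221 with 3915 and 1894 CPM. Mir126a is among them by its selection, and Mir221 falls below 2-fold without Mir206 in the denominator. Mir19b-1, with 8.71 and 31.4 CPM, was past it toward replicate 2. Mir10b, of the vessel list, also had no count.

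**Figure D5:**
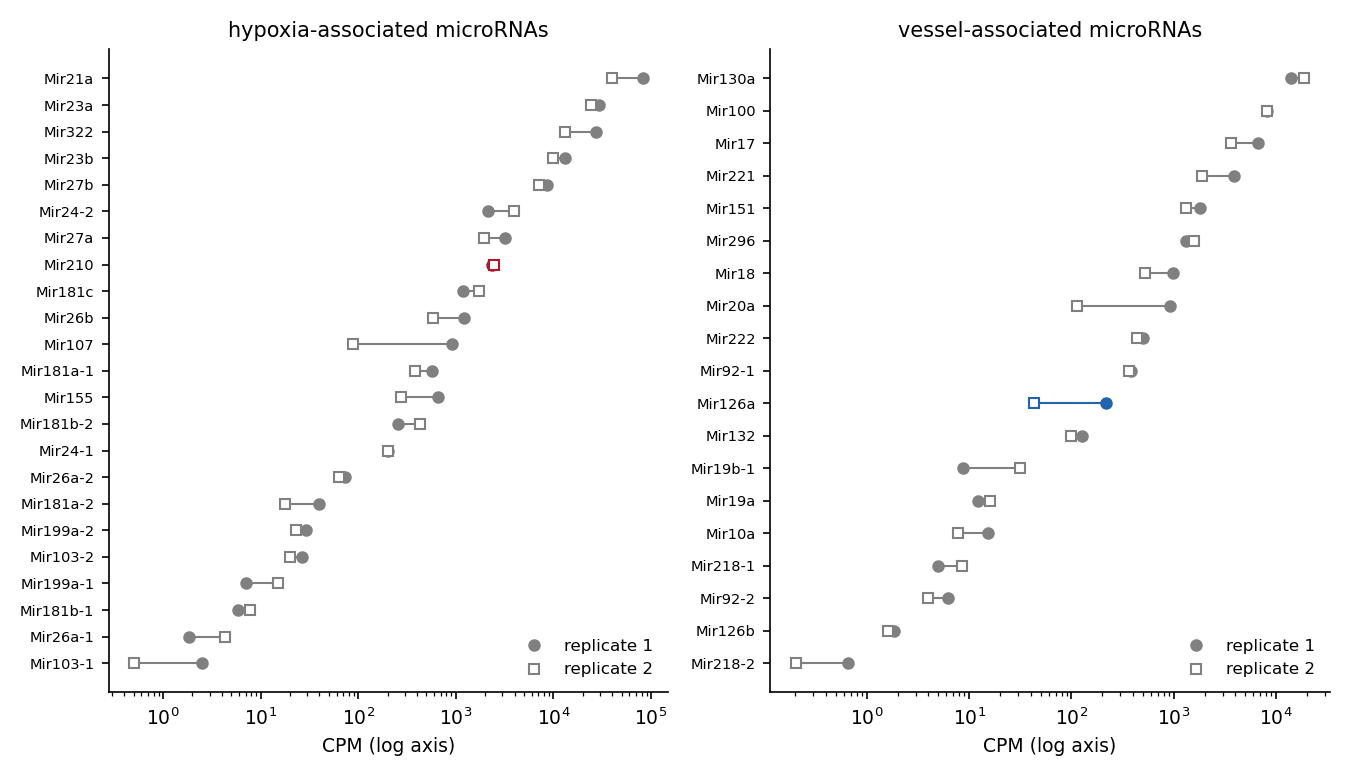
CPM (log axis) of the microRNAs tied to hypoxia (left) and to vessels (right) in replicate 1 (filled circles) and replicate 2 (open squares), ordered by mean, with genes at 0 left out. Mir210 (red) is at place 8 with its points nearly on each other, and Mir126a (blue) is at place 11 with points at 217 and 42.9 CPM.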

How the data were processed

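MicroRNA sequencing of 2 C2C12 myocyte libraries was deposited as read counts per microRNA gene, whole numbers that the values show to be raw. Per the labels' protocols adapters were trimmed, and per the deposited notes reads were placed on mm10 with GENCODE M21 genes. The aligner and the counter were not given in the sources used here. Each table has counts for either strand, the sense strand (used here) and the opposite strand. Total reads were 15349205 in replicate 1 and 18450359 in replicate 2, of which 7581366 and 9865298 were assigned to sense strands. Entries that name no gene were left out of library sizes: unmapped (22.7% and 23.1%), multi-mapped (22.0% and 17.9%) and outside microRNA genes (5.88% and 5.57%).

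CPM, means, SDs and ratios were computed with Python 3.11.15, pandas 2.3.3 and SciPy 1.17.1. Only the ratio was checked on simulated counts, which held known fold changes and counting error but no spread between replicates. Detected means at least 10 counts in each library. Alternative scalings used edgeR 4.0.16 and DESeq2 1.42.0. Hairpins came from M21, printed sequences from RefSeq (both members matched), and folds from RNAfold 2.7.2. Intervals and the limit of 3 counts cover counting error only, since reads carry no molecular identifiers. With 1 group no test was made.

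The members and lists were chosen with earlier results of these data known. Named are the members, overlapping genes, the 3 nearest genes and those next in rank, all cell type markers, and the 4 most abundant genes of each list; the other list genes named (Mir155, Mir181c, Mir26b, Mir107, Mir20b, Mir20a, Mir19b-1 and Mir10b) were picked after their values were seen. The symbols Mir92a-1 and Mir92a-2 were matched to Mir92-1 and Mir92-2 by synonym.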

Additional observations from a re-analysis of the deposited data

Results flagged for a closer look

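Reads on the strand opposite Mir126a, a signal outside the sense-strand column from which the levels were taken, numbered 14 in replicate 1 and 16 in replicate 2, above the 3 counts that a count of 0 allows. The same counts are the sense counts of Mir126b.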

How the results depend on the processing

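No paired analysis was possible because the series holds 1 group. The Mir210 mean of 2400 CPM was 1235 CPM over all reads, 3883 CPM without Mir206 in the denominator and 2745 CPM in the either-strand counts, all by construction of the denominator, and 2352 to 2448 CPM with 1 replicate left out. Its log2 ratio of −0.058 was −0.17 over all reads, −0.23 without Mir206, −0.088 with TMM, −0.12 with DESeq2 size factors and −0.14 in the either-strand counts, and stayed below 0 under all 7 alternatives run. The Mir126a mean of 130.0 CPM was 65.1 CPM over all reads, 201 CPM without Mir206, 0 in the either-strand counts, which therefore gave no ratio, and 42.9 to 217 CPM with 1 replicate left out, so 1 library decides it. Its log2 ratio of 2.34 was 2.16 without Mir206 and 2.10 with 10 CPM added, and stayed past 2-fold under all 6 alternatives run. A ratio cannot be formed with a replicate left out. The 69 genes past 2-fold became 42 with 10 CPM added, 182 of 555 genes with a minimum of 1 count, and 42 of 187 genes with a minimum of 100. With 2 libraries, depth does not limit the precision of either gene's level, and the spread between the libraries does.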
